A study of Mus musculus with 3 samples.

Results

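The polyol and osmotic stress genes described here are 9 genes chosen by name: the aldose reductase family members Akr1b3 and Akr1b8, sorbitol dehydrogenase Sord, the osmolyte transporters Slc5a3, Slc6a12, Slc6a6 and Slc38a2, the transcription factor Nfat5 and the water channel Aqp1. They are 9 of 19737 genes named on the arrays and are read by 11 probes, all well above background on all 3 arrays. The arrays hold RNA of mouse cavernous endothelial cells, primary cells from the erectile tissue of C57BL/6 mice, grown with serum, heparin and vascular endothelial growth factor A. By label, 1 array is from cells in normal glucose at 5 mmol and 1 from cells in high glucose at 30 mmol. The third is from cells in 30 mmol glucose that received 200 pmol of an siRNA against Ninj1, the gene of the adhesion protein ninjurin 1. Each culture condition lasted 48 h and each array carries RNA pooled over 3 numbered samples. The 3 conditions share the strain, the cell source and the medium, and neither the age of the mice nor a control siRNA is named in them. High glucose is also an osmotic load. No array with another osmolyte was analysed here, so glucose and osmolarity cannot be told apart. With 1 array per condition no test was possible, and "higher" and "lower" describe these arrays only.

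In the polyol pathway, aldose reductase turns glucose into sorbitol and sorbitol dehydrogenase turns sorbitol into fructose. Sorbitol draws water into the cell, and its build-up under high glucose is a long-studied mechanism of diabetic damage to vessels, nerve and lens. Cells under hypertonic load activate NFAT5, also called TonEBP, a Rel-family factor that binds tonicity-responsive elements and induces aldose reductase and the transporters of myo-inositol (Slc5a3), betaine (Slc6a12) and taurine (Slc6a6), so that compatible organic solutes replace salt.

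The sequence before Slc6a12 is shown because it holds a tonicity-responsive element and the gene was the member highest on the siRNA-labelled array relative to the high-glucose-labelled one. Those before Slc5a3 and Aqp1 are shown because these genes, transporter and water channel, were lower there. Each run is the 250 bases before a transcription start in RefSeq's table of GRCm38.p6, a later build than the mm9 on which the array was annotated. All lie on the + strand, at chr6:121342324-121342573 for Slc6a12, chr16:92058072-92058321 for Slc5a3 and chr6:55336049-55336298 for Aqp1. Capitals mark a match to the tonicity-responsive element.

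Slc6a12: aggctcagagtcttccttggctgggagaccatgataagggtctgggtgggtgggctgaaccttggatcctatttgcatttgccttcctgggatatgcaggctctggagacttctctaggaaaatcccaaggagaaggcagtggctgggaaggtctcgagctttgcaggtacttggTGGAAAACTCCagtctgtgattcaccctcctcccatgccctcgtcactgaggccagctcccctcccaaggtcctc
Slc5a3: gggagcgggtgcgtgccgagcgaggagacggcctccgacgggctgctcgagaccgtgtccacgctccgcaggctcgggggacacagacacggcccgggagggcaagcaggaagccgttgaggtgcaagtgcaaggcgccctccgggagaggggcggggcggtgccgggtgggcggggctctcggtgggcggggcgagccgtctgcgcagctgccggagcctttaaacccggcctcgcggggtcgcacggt
Aqp1: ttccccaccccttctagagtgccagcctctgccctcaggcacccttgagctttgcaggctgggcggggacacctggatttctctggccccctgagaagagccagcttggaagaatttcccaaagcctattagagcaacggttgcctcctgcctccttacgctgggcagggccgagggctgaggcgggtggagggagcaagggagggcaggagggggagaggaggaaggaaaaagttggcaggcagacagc

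The match before Slc6a12 ended 64 bases before the start. Windows were found for 7 of the 9 members, 11 windows in all, and none for the NFAT5 targets Akr1b3 and Slc6a6. The element was found on either strand in 1 window, the most upstream of 5 for Slc6a12. Of all 32851 windows of this length in the table, 4.31% held it. Its core TGGAAA, which lies inside the element, was found in the same window alone among the members and in 18.6% of all windows. An antioxidant-type motif, TGACNNNGC, was found before Slc38a2 only and in 10.2% of all windows. The Slc5a3 window had 74.8% G and C and 32 CpG pairs, the Aqp1 window 62% and 5, and the Slc6a12 window 55.6% and 2. Of the 9 members, 5 lie on chromosome 6, where Akr1b3 and Akr1b8 are neighbours followed by Akr1b10.

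The siRNA's target did not follow the labels. The Ninj1 probe read 20413 under the normal-glucose label, 16291 with the high-glucose label and 25539 where the label names the siRNA, so its signal was highest there. File names also exchange the 2 high-glucose arrays. For the arrays with the normal-glucose and siRNA labels, the header's slide position is also not the one in the file name, so the normal-glucose label is in doubt too. Each direction holds for an array as labelled, and the arrays are named that way. The cells' endothelial label was checked with 12 markers: 9 were well above background with either glucose label alone and 7 with the siRNA label, and Tie1, Emcn and Erg were not on any array. Under the normal-glucose label Pecam1 (61.9), Cdh5 (166), Tek (41.2), Vwf (63.3), Cldn5 (22.5), Robo4 (42.2) and Esam (112) were dim, while Kdr (7440) and Egfl7 (3355) were brighter. The count therefore does not settle the label. All 10 fibroblast markers were above background on every array. Their summed signal, in units of each array's 75th percentile, was 481 (normal-glucose label), 489 (high-glucose label) and 304 (siRNA label). The endothelial markers summed to 6.35, 6.39 and 7.56 in that order. Probes differ in brightness, so a list's sum is read only across the arrays and gives no share of cells. Smooth muscle and pericyte markers summed to 40.1, 37.5 and 14.1, macrophage markers to 19.0, 18.4 and 19.8, and epithelial markers to 0.256, 0.248 and 0.647. Against the high-glucose label, the array labelled siRNA had 5 of 10 fibroblast markers at least 2-fold lower and none higher. Of 7 measured smooth muscle and pericyte markers, 4 were lower past 2-fold and 1 higher (Cspg4, 1.24). Of 7 macrophage markers, 3 were lower (Lyz2 at -2.05, Adgre1 at -2.06 and Ptprc at -1.25) and 1 higher (Cd14, 1.52), so their near-level sum hides opposite differences. Of 7 measured endothelial markers 2 were higher and 2 lower, and of 4 epithelial markers 2 were higher. The endothelial markers Tek and Cldn5 went from a dim 38.1 and 21.3 to not well above background. They were at least 3.82-fold and 2.12-fold lower and are outside those 7. The part of these markers' cells in the differences below was not tested, and in bulk RNA fewer cells of a type and less RNA per cell cannot be told apart.

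Differences are given on the log2 scale after subtracting each array's 75th percentile, and signals are given unscaled. A probe's signal is compared only with itself on another array. Errors after ± are spot errors: the standard error of the difference from the 10 spots of a repeated probe or, for a probe with 1 spot, from the median SD of the 50 repeated probes nearest in signal. They contain no culture or hybridisation error.

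**Figure D1:**
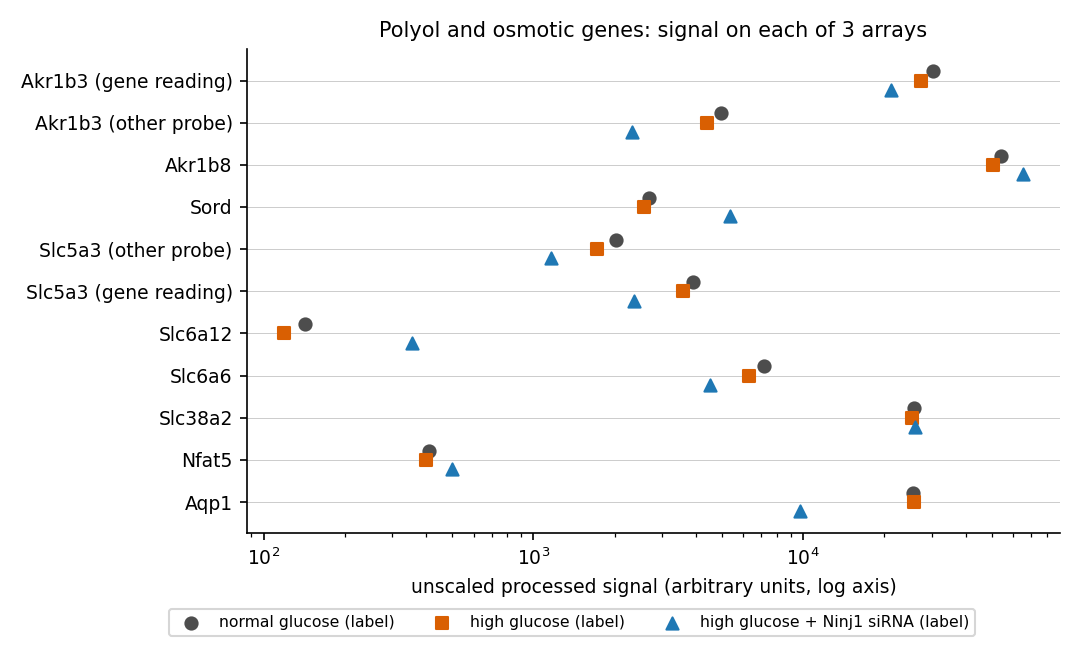
Unscaled processed signal (arbitrary units, log axis) of all 11 member probes on the 3 arrays, 1 point per array and probe, with the mean over spots where a probe has 10. On every row the circle (normal-glucose label) and square (high-glucose label) lie close together, and the triangle (siRNA label) lies farthest from the square for Slc6a12, at 355 against 119, and Aqp1, at 9690 against 25840, followed by Sord, at 5340 against 2564, and the other Akr1b3 probe, at 2316 against 4391.

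Between the arrays labelled high and normal glucose the 9 genes were nearly alike. None was at least 2-fold higher or lower, where 0.276% and 0.193% of the 14491 genes measured on both arrays were. Their differences ran from -0.22 for Slc6a12 to 0.06 for Aqp1, with a median of -0.05, against -0.013 for all genes. Of the 9, 6 were below 0, as were 56.2% of all genes. The aldose reductase, myo-inositol, betaine and taurine transporter genes, the classical NFAT5 targets, were all on the lower side under the high-glucose label. So were 56.2% of all genes, while Slc38a2, also an osmolyte transporter, was at 0.014. These targets were grouped with the values known, so their shared side is no result about NFAT5 targets. Akr1b3, Slc5a3, Slc6a12 and Slc6a6 stayed on that side under all 8 alternative ways of processing that keep the labels. Those alternatives reprocess the same arrays and several return the same value, so they add no independent evidence of direction.

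The betaine transporter Slc6a12 had a signal of 143 with normal glucose as the label and 119 with high glucose. Its difference was -0.22 ± 0.11, from 1 dim spot per array, and 3.36% of genes were at least as far on that side. The taurine transporter Slc6a6 had 7187 and 6289, a difference of -0.15 ± 0.06, with 6.80% of genes at least as far.

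Slc5a3, the sodium-coupled myo-inositol transporter, has 1 of its 2 probes printed 10 times. These spots repeat 1 pooled RNA per array and carry no culture error. On that probe the spots ran from 1871 through a median of 2024 to 2120 under the normal-glucose label and from 1656 through 1724 to 1800 under the high-glucose label. After scaling the ranges still did not overlap, at 0.07 to 0.25 and -0.06 to 0.06. The difference was -0.19 ± 0.02, and -0.08 ± 0.06 on the brighter single-spot probe that reads the gene (3896 and 3578), so the probes differ by 0.10. By that reading 20.8% of genes were at least as far on that side. Slc5a3 lies within Mrps6, a mitochondrial ribosomal protein gene whose own probe differed by -0.15, and signal from shared exons cannot be told apart.

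Akr1b3, the mouse aldose reductase, was at -0.11 ± 0.06 on its brighter probe (30209 and 27226) and -0.13 ± 0.06 on its other (4939 and 4391). Both probes were lower under the high-glucose label, by 1.08-fold and 1.09-fold, and by the brighter probe 13.2% of genes were at least as far. Akr1b8, a fibroblast growth factor-induced relative of aldose reductase, was at -0.05 ± 0.02 over 10 spots per array, whose scaled ranges of 4.85 to 5.00 and 4.80 to 4.91 overlapped. For it 32.3% of genes were at least as far.

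The other members were within their spot error. Sord had 2675 and 2564 (-0.020 ± 0.07) and its direction turned under 1 alternative. Slc38a2, the system A transporter of small neutral amino acids that also takes up osmolytes under hypertonic stress, had 25787 and 25307 (0.014 ± 0.06). Nfat5 itself had 410 and 398, a difference of 0.00017 ± 0.09 whose sign turned under 4 of the 8 alternatives. Aqp1, the water channel of red cells, kidney and capillary endothelium, had 25497 and 25840 (0.06 ± 0.06).

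**Figure D2:**
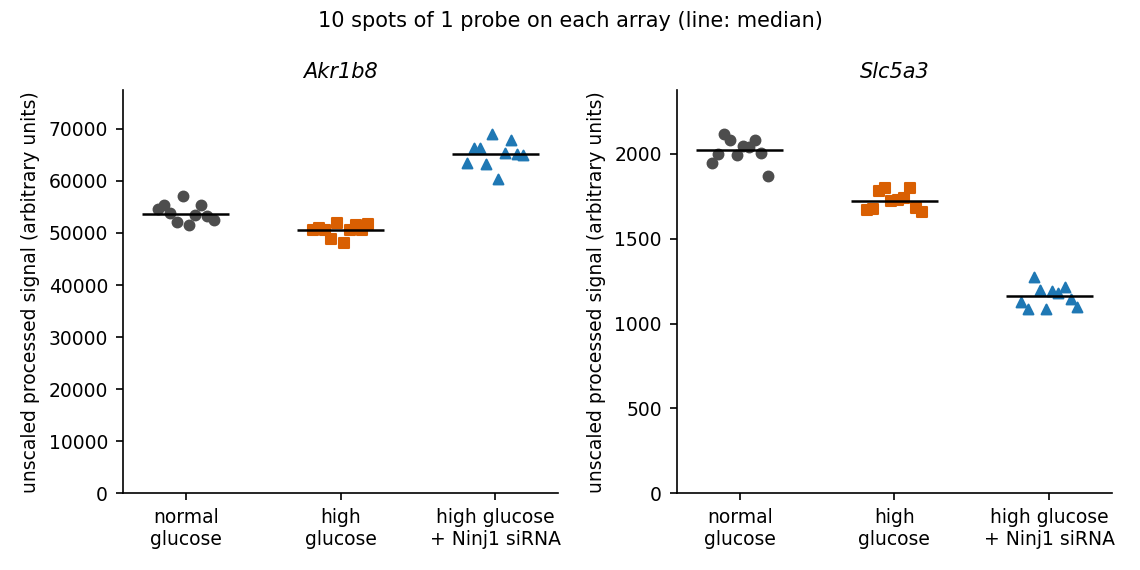
Unscaled signal (arbitrary units, axis from 0) of the 10 spots of the Akr1b8 probe and of the repeated Slc5a3 probe on each array, with lines at the medians. The Slc5a3 medians step down from 2024 to 1724 to 1161 with no overlap between arrays, and the Akr1b8 medians are 53666, 50620 and 65193.

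The array labelled siRNA differed from that labelled high glucose in both directions within this set. Of the 9 genes, 1 was at least 2-fold higher (Slc6a12) and 1 at least 2-fold lower (Aqp1), where 6.03% and 7.18% of 14521 genes were. With so few members, 1 each way is near that background. The members' median was -0.18, against 0.011 for all genes. Of the 9, 4 were above 0 and 5 below, where 49.0% of all genes were below, so this split is near the background. The sorbitol-producing and sorbitol-consuming enzymes lay on opposite sides, as did the transporters.

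In the order normal glucose, high glucose and siRNA, the brighter Akr1b3 probe read 30209, 27226 and 21198, and the other 4939, 4391 and 2316. Both probes were lowest on the array labelled siRNA. The difference from the high-glucose label was -0.59 ± 0.07 on the brighter probe and -1.15 ± 0.07 (2.22-fold lower) on the other, a gap of 0.56 that is larger than the spot error. So the direction was shared by the probes and the size was not. The probes carry the same transcript accession, and their positions on it are not given in the sources used here.

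Sord, the next enzyme of the pathway, was opposite to Akr1b3. Its signals were 2675, 2564 and 5340 in the same order, 0.83 ± 0.07 or 1.78-fold higher with the siRNA label than with high glucose alone, on 1 probe, and 8.19% of genes were at least as far on that side. Fructose is next phosphorylated by ketohexokinase, and Khk was 1.65-fold lower (5733 and 4065).

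Akr1b8 was close to level, with spots from 48069 to 51994 under the high-glucose label and from 60363 to 69093 under the siRNA label before scaling. After scaling these ran from 4.80 to 4.91 and from 4.90 to 5.09 and met at their ends. Its difference was 0.14 ± 0.02, yet it lay at or below 0 under 2 of the 8 alternatives, so its direction depends on the scaling. The other family members did not share one direction either. Akr1b10 was at -0.21 and -0.10 on its 2 probes, Akr1b7, an aldose reductase-like gene of the adrenal and vas deferens, at 0.73 ± 0.20 with a dim 36.5 and 71.2, and Akr1a1, aldehyde reductase, at 0.13. Probe sequences were not analysed here, so signal shared between these close paralogs cannot be told apart.

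Of the 4 osmolyte transporters, 3 were lower and 1 higher under the siRNA label, beside 49.0% of all genes lower. Slc5a3 was at -0.80 ± 0.03 on the repeated probe, whose spots under the siRNA label ran from 1083 through 1161 to 1275, all under the lowest of the other arrays. Its other probe (3896, 3578 and 2359 in the order above) was at -0.83 ± 0.07, 1.78-fold lower, so here both probes gave nearly the same size. Mrps6, in which Slc5a3 lies, was at -0.35.

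Slc6a6 had signals of 7187, 6289 and 4527, and was 1.63-fold lower under the siRNA label (-0.70 ± 0.07, with 11.9% of genes at least as far). Slc38a2 had unscaled signals of 25787, 25307 and 26077, level across the arrays. Because the siRNA-labelled array was brighter at its 75th percentile, scaling put it at -0.18 ± 0.07, and 34.6% of genes were at least as far.

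Slc6a12 went the other way. Its signals were 143, 119 and 355, and it was 2.54-fold higher under the siRNA label (1.35 ± 0.11), with 3.46% of genes at least as far. Of the 7 members with a window, it is the one with a window that held the tonicity-responsive element. Akr1b3 and Slc6a6 had no window to search, and any part of the element in this difference was not tested. The value rests on 1 spot per array, and was 1.01 with normexp background correction.

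Nfat5 had signals of 410, 398 and 501, a difference of 0.10 ± 0.09 that is about the size of its spot error, so no difference in the factor's mRNA was detectable at this precision. NFAT5 is also regulated by phosphorylation and transport into the nucleus, which arrays do not measure.

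Aqp1 had the largest difference of the 9, with signals of 25497, 25840 and 9690. From the high-glucose to the siRNA label it was 3.12-fold lower (-1.64 ± 0.07), and 2.45% of genes were at least as far. Fibroblast and smooth muscle markers were lower on the same array, and endothelial markers went both ways: Cdh5, the endothelial cadherin, was at 1.51 and Vwf, von Willebrand factor, at -1.26 on dim probes (184.8 and 618 for Cdh5, 66.2 and 32.3 for Vwf), while Kdr, the receptor of vascular endothelial growth factor, was at -0.05 with signals of 7298 and 8278. Their part in the Aqp1 difference was not tested.

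**Figure D3:**
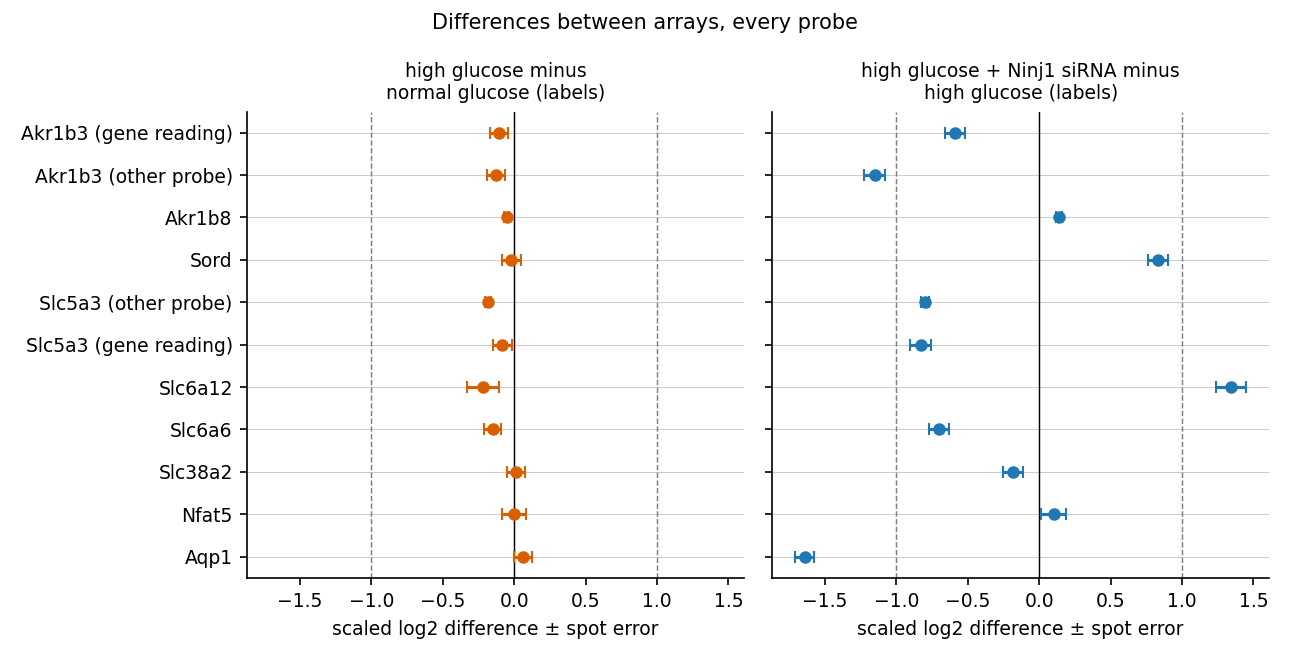
Scaled log2 difference of every member probe, with spot errors as bars, for the high-glucose label minus the normal-glucose label (left) and the siRNA label minus the high-glucose label (right). Dashed lines mark 2-fold. All left-hand points lie between -0.22 and 0.06, and right-hand points spread from -1.64 for Aqp1 to 1.35 for Slc6a12.

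The siRNA-labelled array was also set against the normal-glucose one. This comparison shares the siRNA-labelled array with the one above, so their values are not independent. Again 1 member was at least 2-fold higher (background 5.82%) and 1 at least 2-fold lower (7.03%). Aqp1 was at -1.58 ± 0.07, Slc5a3 at -0.91 ± 0.08, Slc6a6 at -0.85 ± 0.07, Akr1b3 at -0.70 ± 0.07, Slc38a2 at -0.17 ± 0.07, Akr1b8 at 0.09 ± 0.02, Nfat5 at 0.10 ± 0.09, Sord at 0.81 ± 0.08 and Slc6a12 at 1.13 ± 0.10. Slc6a12 was under 2-fold with normexp, at 0.82.

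**Figure D4:**
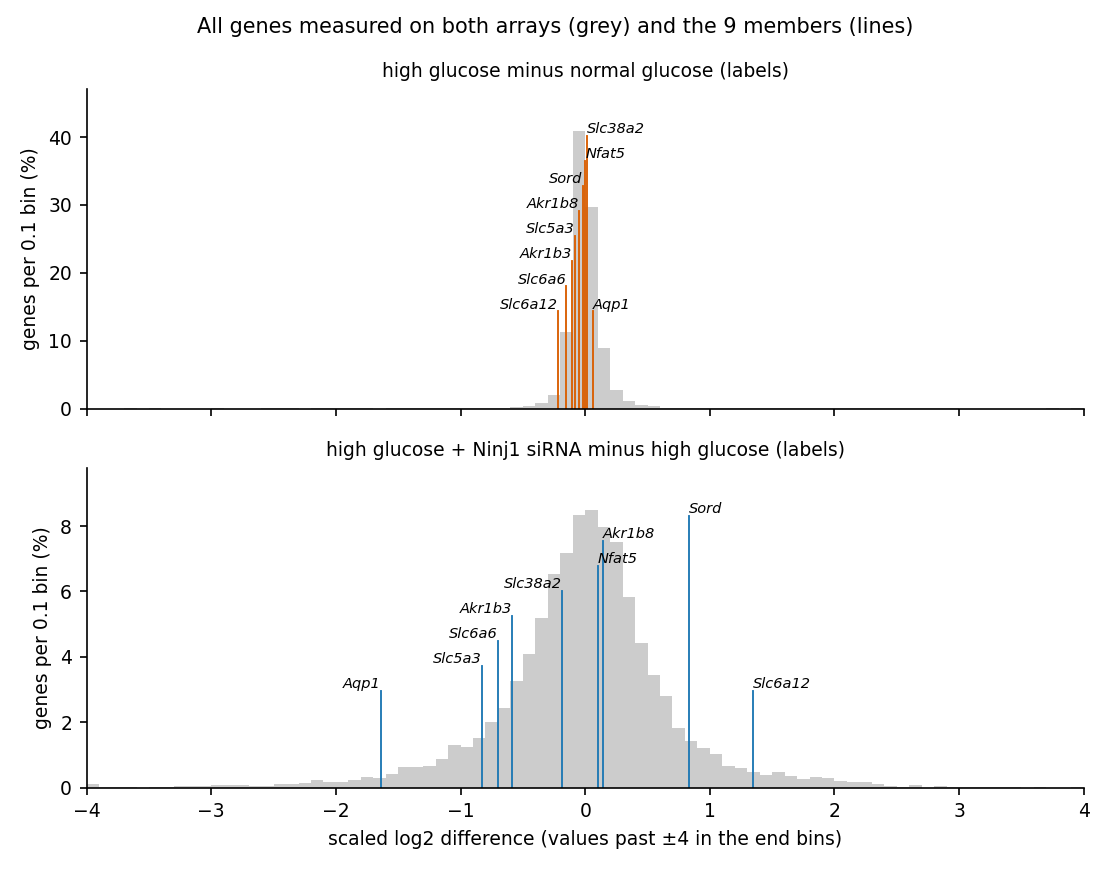
Share of all genes measured on both arrays per 0.1 bin of scaled log2 difference (grey bars, %) with the 9 members as labelled lines, for the high-glucose minus normal-glucose labels (top) and the siRNA minus high-glucose labels (bottom). Line heights only separate the names. In the upper panel all members lie between -0.22 and 0.06. Slc6a12 is toward the lower edge there, with 3.36% of genes at least as far on its side. In the lower panel Aqp1 (-1.64) and Slc6a12 (1.35) lie in the tails, with 2.45% and 3.46% of genes at least as far.

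The wider pathway was read with 8 lists holding 85 further genes, of which 84 had a named probe. Between the high- and normal-glucose labels 78 were measured on both arrays and none was past 2-fold. Between the siRNA and high-glucose labels 76 were measured. Past 2-fold, 3 of them were higher and 6 lower, and their median was 0.05. Over all genes 6.03% were higher and 7.18% lower, so these counts are near the background. The same shares apply to every list below, and none past 2-fold in a short list does not set its genes apart.

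Of 11 measured genes of osmolyte synthesis and breakdown, 4 were at least 2-fold lower under the siRNA label and 1 higher, with a median of -0.29, beside 7.18% lower and 6.03% higher over all genes. Isyna1, 1 of the 4, was only just past the threshold. The list was chosen with earlier results of these arrays known, and no enrichment was tested. Cdo1, cysteine dioxygenase, which oxidises cysteine, had signals of 1672, 1714 and 394 under the normal-glucose, high-glucose and siRNA labels and was 5.10-fold lower under the last than under the second. Csad, the decarboxylase that makes hypotaurine, had 6148, 5832 and 2312 and was 2.95-fold lower. Fmo1, a flavin monooxygenase that oxidises hypotaurine to taurine, had 848, 841 and 152, 6.47-fold lower, with its dimmer probe at -1.29.

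The taurine transporter Slc6a6 was lower on the same array, as given above. Fibroblast markers were lower there too, by a median of -1.17, and their part in the values of Cdo1, Csad and Fmo1 was not tested. In the inositol branch, Isyna1, which makes myo-inositol phosphate from glucose phosphate, had 8597, 7490 and 4382 and was 2.00-fold lower (-1.001), just past the threshold. Its direction was that of the myo-inositol transporter Slc5a3. Impa2, an inositol monophosphatase, had 963, 886 and 2332 and was 2.25-fold higher, while its relative Impa1 was at 0.17.

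The list of other osmotic stress targets, outside the members, was mixed. Of its 12 measured genes, 1 was at least 2-fold higher (Hmox1) and 1 lower (Hspa1a), with a median of -0.21. Hspa1a, an inducible heat shock protein gene, had 812, 732 and 296 and was 2.89-fold lower, and its near-identical copy Hspa1b has no named probe, so signal of the pair cannot be told apart. Hspa4l, the osmotic stress protein 94 gene, was 1.72-fold lower. Hmox1, haem oxygenase 1, an oxidant-responsive gene, had 3120, 2648 and 14513 and was 4.68-fold higher, with its other probe at 1.14. Tnf, the gene of the cytokine tumour necrosis factor, was at least 2.96-fold lower, from a dim 29.6 to not well above background.

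None of the 15 listed regulators of NFAT5 passed 2-fold, beside 6.03% higher and 7.18% lower over all genes, and their median was 0.09. Among the calcineurin-regulated relatives of Nfat5, Nfatc2 was 2.60-fold lower on a dim probe (52.9 and 23.8) while its other probe was not well above background, and Nfatc1, Nfatc3 and Nfatc4 were at -0.21, 0.06 and -0.33. In the polyol and fructose list none of the 8 measured other enzymes passed 2-fold.

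Cell volume and ion transport genes had a median of 0.28 over 18 genes, with 1 at least 2-fold higher and none lower. It was Lrrc8b, a subunit of the volume-regulated anion channel that releases osmolytes from swollen cells, with 237, 225 and 591 and 2.25-fold higher. Its relative Lrrc8d was just short, at 0.997 (4035, 3597 and 8405), and the obligatory subunit Lrrc8a was at -0.11.

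Of the 7 other aquaporin genes measured, none passed 2-fold, beside 6.03% higher and 7.18% lower over all genes. Their median was 0.43. Aqp5 lay below 0, at -0.14, and Aqp2, Aqp4 and Aqp7 lay above, at 0.26, 0.43 and 0.20. Aqp3, which also carries glycerol, had 1045, 895 and 1885 (0.85), Aqp8 had 243, 216 and 470 (0.90) and Aqp11 had 128, 137 and 263 (0.71). Aqp6, Aqp9 and Aqp12 were not well above background. The neighbours of Slc38a2 also differed from it: Slc38a1 was 1.88-fold higher under the siRNA label, and Slc38a4 was at least 4.08-fold lower, from a dim 40.8 to not well above background.

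**Figure D5:**
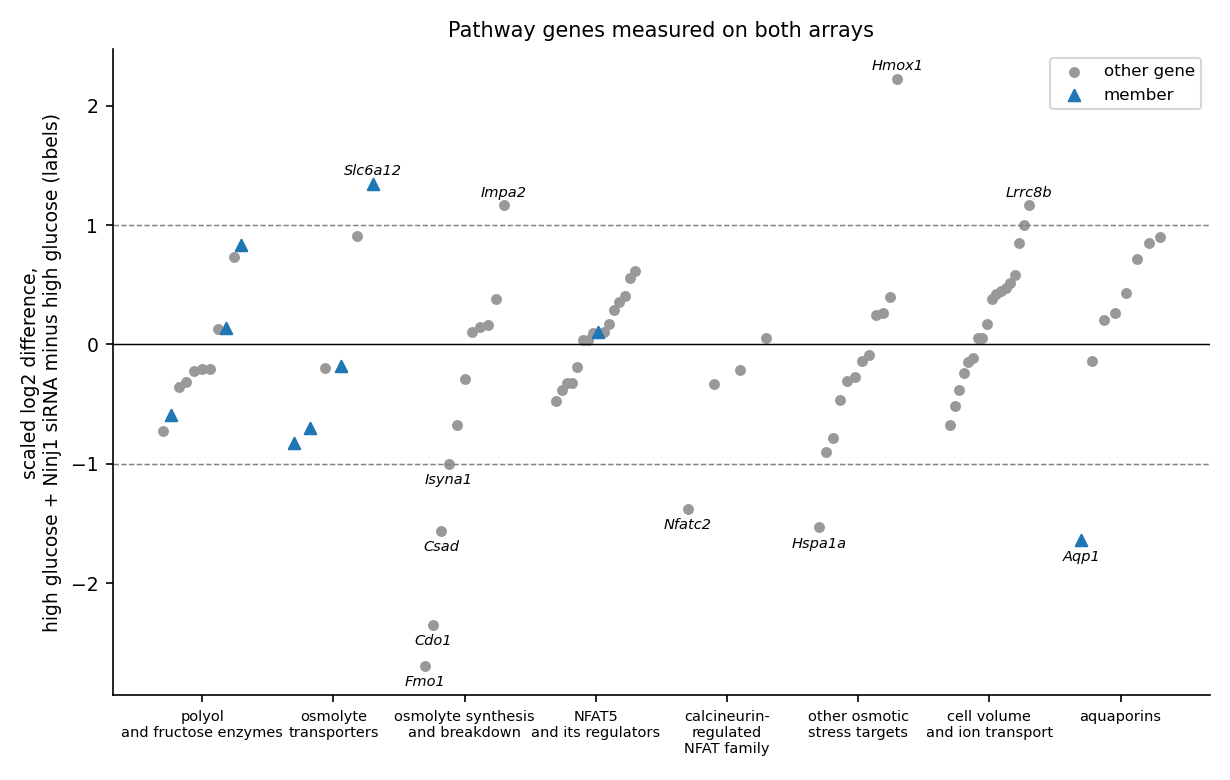
Scaled log2 difference (siRNA label minus high-glucose label) of each gene measured on both arrays in the 8 lists, members as triangles and other genes as grey points, sorted within a list. Dashed lines mark 2-fold. Cdo1, Csad and Fmo1 lie between -1.56 and -2.69, and Hmox1 stands highest at 2.23.

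Likeness of pattern was measured as the Euclidean distance between log2 levels on the 3 arrays, each gene centred on its own mean, over 14358 other genes. Nearest to Slc6a12 were Eid3 (0.027), an SMC complex subunit gene, Prkcb (0.031), protein kinase C beta, and Ereg (0.045), the growth factor epiregulin. Nearest to Aqp1 were Apbb1 (0.015), an amyloid precursor-binding adaptor, Asap3 (0.016), a GTPase-activating protein of Arf, and Ifitm2 (0.022), an interferon-induced membrane protein. With 3 arrays such distances can only group genes by 2 differences.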

How the data were processed

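Total RNA pooled over 3 numbered samples per condition was labelled with Cy3 and hybridised to 3 arrays of 1 slide, per the labels' protocols and the file headers. Per the file headers, Agilent Feature Extraction 11.0.1.1 gave a background-subtracted processed signal, a linear intensity, with marks for outlier spots and for spots well above background. The authors' deposited value table holds this linear intensity too: 100% of 38999 single-spot probes were within 0.1% of it. Its column medians were 118, 118 and 129 in the order of the report, so it is not centred.

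Outlier spots (107 to 147 per array) were left out, log2 signals were averaged over a probe's spots, and each array's 75th percentile was subtracted. A probe was well above background where 50% of its spots were. No spot was saturated, and 67.1%, 67.6% and 70.6% of probes were above background. Of 39398 probes, 26036 (66.1%) were named through RefSeq's gene table of GRCm38.p6. Of a gene's probes above background on any array, the brightest reads the gene. A bound sets the bright value against the dim probe's own value or, if higher, the lowest one above background on its array. Alternatives used R 4.3.3 and limma 3.58.1. The steps were tested on simulated data. Having 1 array per condition limits the precision.

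The members and lists were chosen with earlier results of these data known. Named are all members with every probe, their relatives, the listed genes past 2-fold under the siRNA label against the high-glucose label and above background on both arrays, the 3 genes most like the most raised and most lowered member, and Ninj1. Other genes serve as context or as markers and were chosen after their values were seen. Normexp was planned on mean spot signals and run on medians, since the files used here hold those.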

Additional observations from a re-analysis of the deposited data

How the results depend on the processing

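Of 216 member values under the 8 alternatives that keep the labels, 199 moved by less than their spot error, 17 moved further and none past 2-fold changed sign. Many of the 199 could not move. All 11 member probes were above background on every array, so dropping the filter or requiring every array gave the main values again. The series value table holds the same signal. Averaging over a gene's probes can change only the 2 members with more than 1 probe. For the siRNA label minus the high-glucose label the members' median fell to -0.30 (cyclic loess) and -0.27 (quantile). For the siRNA label minus the normal-glucose label it was -0.27 with cyclic loess, and normexp left 0 members at least 2-fold higher. At 1.5-fold 2 members were higher and 4 lower in both comparisons with the siRNA label. At 3-fold 0 were higher in either, and 0 lower against the normal-glucose label. No scaling moved the median of all genes by over 0.1. Among alternatives that keep the 2-fold threshold, counts over all genes were lowest with normexp: 606 higher and 720 lower for the siRNA label against the high-glucose label beside 875 and 1043, and 15 and 11 beside 40 and 28 for the high-glucose label against the normal-glucose label. Without a filter on dim probes they were 1437 and 1704, and 433 and 329. With the mean over a gene's probes, taken over 15762 genes, the second pair was 271 and 200. For the siRNA label against normal glucose they were 1421 and 1602 without the filter.

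With the 2 high-glucose arrays exchanged, as in the file names, high minus normal glucose had 1 member at least 2-fold higher, 1 lower and a median of -0.17. The siRNA minus high-glucose median was then 0.18, with Slc6a12 at -1.35 and Aqp1 at 1.64. The siRNA minus normal-glucose comparison had 0 and 0 members past 2-fold, a median of -0.052, Slc6a12 at -0.22 and Aqp1 at 0.061. An assignment by the slide positions inside the files was added after seeing the data. It gave high minus normal glucose 1 member higher, 1 lower and a median of 0.17. It gave siRNA minus high glucose 0 and 0 members, a median of -0.052, Slc6a12 at -0.22 and Aqp1 at 0.061, and siRNA minus normal glucose a median of 0.18, Slc6a12 at -1.35 and Aqp1 at 1.64. In both of these assignments the siRNA array is the one labelled high glucose, whose Ninj1 signal of 16291 is the lowest of the 3. Under the labels the siRNA array has the highest, 25539. Which assignment is right was not tested. No paired analysis was possible because each condition has 1 array, and for the same reason leaving out a replicate was not run. Dim probes such as those of Slc6a12, Akr1b7 and Nfatc2 carry the least signal over background.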
